A study of Mus musculus with 12 samples.

Results

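The genes described here are 10 markers of the first extraembryonic lineages of the mouse embryo and of simple epithelia, taken as a given list from 55266 genes with summed counts. They are the simple keratin genes Krt8, Krt18 and Krt19, the trophectoderm transcription factor genes Cdx2 and Gata3, the primitive endoderm transcription factor genes Gata4, Gata6, Sox17 and Sox7, and Dab2, which encodes an endocytic adaptor of the endoderm. They were followed in mouse embryonic stem cells of the E14 line with 2C::3xtbGFP, a fluorescent turboGFP (tbGFP) marker for 2-cell-like cells. All groups shared the line, the reporter, gelatin-coated plates and medium with serum and LIF, and all were plated without CHIR99021 and PD0325901, the kinase inhibitors used for expansion. Sorbitol, a sugar alcohol that raises osmolarity, was present for 0, 6 or 24 h, and the harvested cells were sorted by FACS into a tbGFP-positive and a tbGFP-negative fraction, which gave 6 groups of 2 libraries. The labels give 48 h of culture for every group but do not say whether the time in sorbitol lay within it, so whether total culture time differed between groups is not known. They give neither the sorbitol concentration nor whether the reporter line is 1 clone. Each group has a replicate 1 and a replicate 2, but no label states that they are separate cultures, and the p-values then reflect only the spread from library to library.

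In the blastocyst, an outer epithelium called the trophectoderm forms first and later gives the placenta, and the primitive endoderm then separates from the epiblast and gives the yolk sac. Keratin 8 is a type II keratin that pairs with the type I keratins 18 and 19 into the intermediate filaments of simple epithelia, and the trophectoderm is the first tissue of the embryo to build them. Embryonic stem cells stem from the epiblast and keep most of these genes low. 2-cell-like cells are a rare and transient state in such cultures that expresses genes of the 2-cell embryo, a stage whose cells can still form both embryonic and extraembryonic tissues.

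The libraries held 2306870 to 7900178 counts, and 3 counts corresponded to 0.38 to 1.3 CPM, the count relative to the library total. Levels below are CPM scaled with TMM factors, with SD over n = 2 libraries. Pluripotency genes checked the cell label: all 9 listed had counts in every group, with summed levels of 2530 to 3780 CPM. Between fractions, tbGFP-positive cells were higher in Nanog at 0 h (1.73 ± 0.41, edgeR adjusted p = 0.0139) and Klf2 at 6 h (1.68 ± 0.22, adjusted p = 8.39e-05) and lower in Tfcp2l1 at 24 h (-0.68 ± 0.14, adjusted p = 0.00432), all pluripotency factor genes. Over time, Klf2 fell from 0 to 6 h in tbGFP-negative cells (-2.11 ± 0.23, adjusted p = 9.34e-05). From 6 to 24 h Pou5f1 fell there (-1.37 ± 0.28, adjusted p = 0.00586), while Sox2, Tfcp2l1 and Klf2 rose (0.84, 0.63 and 1.09). In tbGFP-positive cells from 0 to 6 h Nanog fell (-1.75 ± 0.41, adjusted p = 0.0253) and Klf4 rose (0.86 ± 0.20, adjusted p = 0.0227). The summed levels do not show these shifts. Of the other cell types listed, fibroblast genes summed to 3.41 to 12.7 CPM in the tbGFP-negative and 7.66 to 27.5 CPM in the tbGFP-positive libraries, and the fibroblast markers Pdgfrb and Postn were at 0 in all groups. The 5 listed ectoderm genes summed to 41 to 94.1 CPM in the tbGFP-negative and 88.1 to 141 CPM in the tbGFP-positive libraries, without overlap between fractions at any time. Most of this sum was Tubb3, at 35.7 to 137 CPM, so it does not stand for the list. Sox1 went the other way at 6 h, at 5.37 and 3.12 CPM in tbGFP-negative and 0.604 and 0 CPM in tbGFP-positive cells. Fewer genes were detected in both tbGFP-positive libraries at 6 h (17545 and 17445), in replicate 1 of tbGFP-negative cells at 0 h (18674) and in replicate 2 of tbGFP-positive cells at 0 h (18600) than in the other 8 libraries (23379 to 26069). Replicate 2 of tbGFP-positive cells at 6 h also had few genes at 2 counts (427, against 1447 to 4114 elsewhere). The part of these differences in the results below was not tested.

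Krt8 and Krt18 were the members with the most counts. Krt8 (ENSMUSG00000049382.10) lies on chromosome 15 from 101996698 to 102004482 on the minus strand, and Krt18 (ENSMUSG00000023043.7) from 102028180 to 102032027 on the plus strand (GRCm38). Their starts face each other 23.7 kb apart, and the annotation holds no other gene between them. The sequences just before both GENCODE starts are shown because both genes passed as higher in the 6 h comparison of fractions below. They were taken from RefSeq promoter windows (GRCm38.p6), at chr15:102004483-102004592 on the minus strand for Krt8 and chr15:102027966-102028179 on the plus strand for Krt18, and capitals mark a match to AGATAA, the core of a GATA factor motif.
Krt8: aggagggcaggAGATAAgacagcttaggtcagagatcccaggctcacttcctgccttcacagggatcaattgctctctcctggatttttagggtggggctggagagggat
Krt18: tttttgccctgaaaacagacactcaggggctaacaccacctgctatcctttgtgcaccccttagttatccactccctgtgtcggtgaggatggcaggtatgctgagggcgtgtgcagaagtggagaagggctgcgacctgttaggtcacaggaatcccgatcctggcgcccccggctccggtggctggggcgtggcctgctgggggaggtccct
A window of 300 bases around the RefSeq start was given for 5 of the 10 members (Krt8, Krt18, Cdx2, Gata3 and Dab2, the last with more than 1 window). On both strands, AGATAA occurred in 11.2% of all 32851 windows, the TATA box TATAAA in 13.6%, the GC box GGGCGG in 35.7% and the AP-1 motif TGANTCA in 7.81%. The Krt8 window held TATAAA on each strand in overlapping positions at its RefSeq start and the AGATAA shown, Gata3 held GGGCGG in 2 places, and Dab2 held 1 AGATAA. For Krt8 the RefSeq start is at 102004342 and the GENCODE start at 102004482. The Krt8 stretch shown ends at the GENCODE start and does not reach the TATAAA. The windows of Krt18 and Cdx2 held none of these letters. A motif of the 2-cell factor DUX was in 2 of the 32851 windows and in no member's.

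The first question was whether tbGFP-positive cells, the 2-cell-like fraction, differed from tbGFP-negative cells in these genes at each time. Before sorbitol, Krt8 was the 1 of 7 tested members that passed, and it was 3.54-fold higher in tbGFP-positive cells. At 6 h Krt8 and Krt18 passed, 2.85-fold and 3.61-fold higher, and at 24 h none passed. Among all 19384 genes tested by edgeR's quasi-likelihood test at an adjusted p under 0.05, 7.11% passed at 0 h (6.66% higher, 0.449% lower), 12.1% at 6 h (6.92% higher, 5.22% lower) and 5.46% at 24 h (5.35% higher, 0.113% lower). Gata4, Sox17 and Dab2 did not reach 10 counts in any library and were not tested, so each count of members is of 7.

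In tbGFP-negative cells at 0 h, Krt8 was at 19 CPM in replicate 1 and 16.4 CPM in replicate 2, and in tbGFP-positive cells at 73.2 and 51.1 CPM. Both tbGFP-positive libraries lay above both tbGFP-negative ones, and the log2 fold change was 1.83 ± 0.27 (SE, edgeR adjusted p = 0.000242). This call held in all 21 alternative analyses. At 6 h Krt8 was at 37.7 and 33.9 CPM in tbGFP-negative and at 88.1 and 116 CPM in tbGFP-positive cells, again without overlap, and the log2 fold change was 1.51 ± 0.26 (adjusted p = 0.00104), which held in all 20 alternatives. At 24 h the levels were 35.5 and 40.3 CPM against 57.2 and 49.5 CPM. The fractions still did not overlap, but the log2 fold change of 0.49 ± 0.26 did not pass (adjusted p = 0.527). From lowest to highest mean, Krt8 was at 17.7 ± 1.9 CPM in tbGFP-negative cells at 0 h, 35.8 ± 2.72 at 6 h and 37.9 ± 3.44 at 24 h, then in tbGFP-positive cells at 53.3 ± 5.43 at 24 h, 62.2 ± 15.6 at 0 h and 102 ± 19.5 at 6 h. The libraries of neighbours in this order overlapped for the tbGFP-negative groups at 6 and 24 h and for the tbGFP-positive groups at 24 and 0 h.

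**Figure D1:**
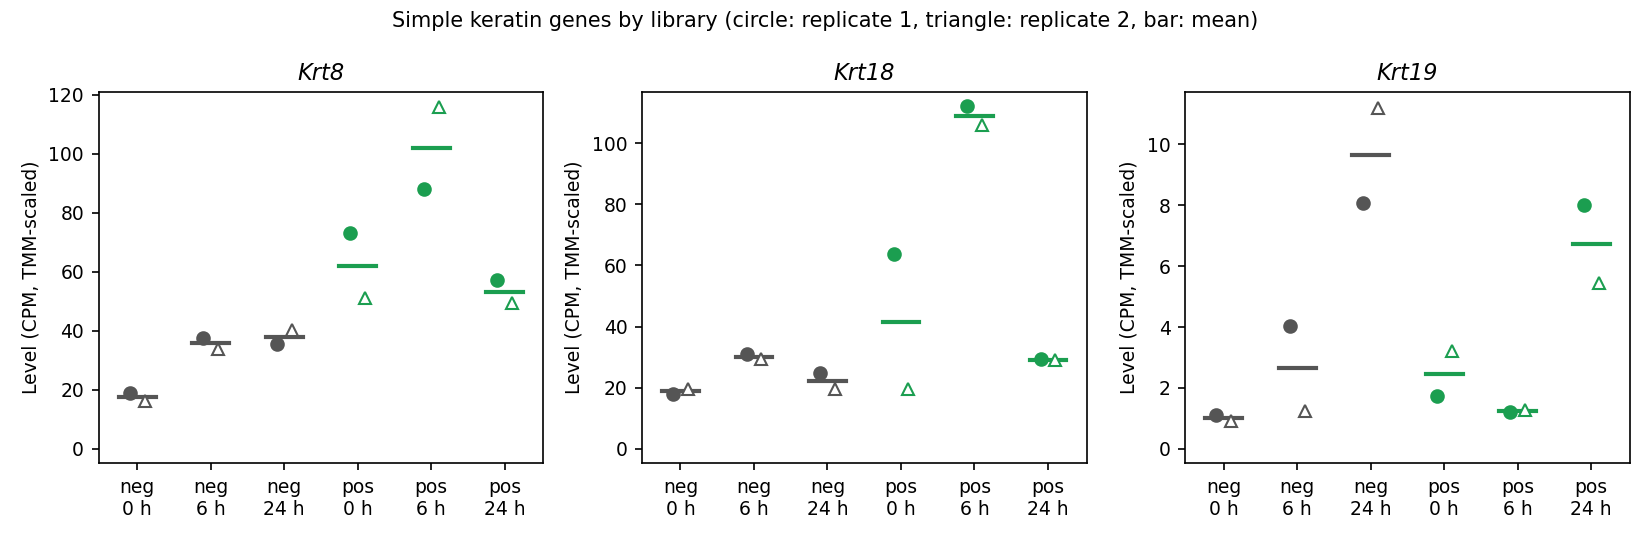
Levels of Krt8, Krt18 and Krt19 in each library (vertical axis, CPM scaled with TMM factors, a separate scale for each gene) in tbGFP-negative (neg, grey) and tbGFP-positive (pos, green) cells at 0, 6 and 24 h of sorbitol. Circles are replicate 1, triangles replicate 2 and bars the mean of 2 libraries. Krt8 and Krt18 stand highest in tbGFP-positive cells at 6 h, and Krt19 in both fractions at 24 h.

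For Krt18, 1 library set the picture at 0 h. It was at 17.9 and 19.7 CPM in tbGFP-negative cells, and at 63.6 CPM in replicate 1 but 19.5 CPM in replicate 2 of tbGFP-positive cells. Replicate 2, 1 of the 4 libraries with fewer genes detected, lay within the tbGFP-negative range. The log2 fold change of 1.15 ± 0.40 did not pass (edgeR adjusted p = 0.123). Without this replicate 2 it was 1.77, and over all fits that left out 1 library it ranged from 0.06 to 1.77. The 2 tbGFP-positive libraries thus disagree. With both kept, the comparison passed with no filter on low counts (1.13, edgeR adjusted p = 0.0198). It also passed without both tbGFP-positive libraries at 6 h (1.16, adjusted p = 0.0441). The call depends on such settings, and no difference is shown for Krt18 at 0 h. At 6 h the fractions were far apart, at 31 and 29.3 CPM against 112 and 106 CPM, with a log2 fold change of 1.85 ± 0.39 (adjusted p = 0.00582). That call was lost without replicate 1 (adjusted p = 0.0778) or replicate 2 (adjusted p = 0.0845) of tbGFP-negative cells at 6 h. At 24 h Krt18 was at 24.9 and 19.7 CPM against 29.3 and 29 CPM, and its log2 fold change of 0.38 ± 0.39 did not pass and was -0.04 when counts were scaled by library totals alone. In mean level, tbGFP-positive cells at 6 h, at 109 ± 4.56 CPM, stood above all other groups, which ranged from 18.8 ± 1.22 CPM (tbGFP-negative, 0 h) to 41.6 ± 31.2 CPM (tbGFP-positive, 0 h). The wide range of the latter group covered the libraries of tbGFP-negative cells at 6 and 24 h and of tbGFP-positive cells at 24 h.

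The next question was how the genes differed over sorbitol time within each fraction. In tbGFP-negative cells Krt8 was the 1 member that passed, 2.04-fold higher at 6 h than at 0 h (log2 fold change 1.03 ± 0.27, edgeR adjusted p = 0.0426) and 2.16-fold higher at 24 h (1.11 ± 0.27, adjusted p = 0.0283). Among all tested genes 4.44% and 3.99% passed in these comparisons, with 3.22% and 2.7% of all tested genes higher and 1.21% and 1.29% lower. All 4 sorbitol libraries were above both 0 h libraries, but the calls sat close to the threshold. The 6 h call was lost in 12 of 21 alternatives, among them upper-quartile scaling (adjusted p = 0.0692), library totals (0.68, adjusted p = 0.184) and without any 1 library of tbGFP-negative cells or of tbGFP-positive cells at 24 h (adjusted p 0.0683 to 0.414). The 24 h call was lost in 9 of 21, among them upper-quartile scaling (adjusted p = 0.0875) and without any 1 tbGFP-negative library (adjusted p 0.0954 to 0.436) or replicate 2 of tbGFP-positive cells at 24 h (adjusted p = 0.0793).

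In tbGFP-positive cells Krt18 was the 1 member that passed at 6 h against 0 h, 2.61-fold higher (1.38 ± 0.39, edgeR adjusted p = 0.0491), where 5.9% of all tested genes passed (2.14% higher, 3.76% lower). The call rested on the low replicate 2 at 0 h among others: without it the log2 fold change was 0.69 (adjusted p = 0.188), and leaving out any 1 library of tbGFP-negative cells or of tbGFP-positive cells at 24 h also ended it (adjusted p 0.0789 to 0.106). Krt8 differed by 0.71 ± 0.25 and did not pass (adjusted p = 0.106). At 24 h against 0 h no member passed in tbGFP-positive cells, and 0.552% of all tested genes did (0.304% higher, 0.248% lower); Krt8 was at -0.22 and Krt18 at -0.52 on the log2 scale.

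Comparisons of 24 h with 6 h were added after the values had been seen. Between these times Krt8 and Krt18 both fell in tbGFP-positive cells, Krt8 with a log2 fold change of -0.94 ± 0.26 (edgeR adjusted p = 0.0357) and Krt18 with -1.90 ± 0.39 (adjusted p = 0.0109). These were 2 of 7 tested members, where 8.82% of all tested genes passed (5.91% higher, 2.9% lower). For Krt18 the groups were separated by a wide gap, from 29.3 CPM up to 106 CPM, and the call was lost without either library at 24 h (adjusted p = 0.103 and 0.095) or with only these 4 libraries in the fit (adjusted p = 0.19). The Krt8 call was lost in 11 of 20 alternatives, among them those without any 1 library of tbGFP-negative cells (adjusted p 0.0559 to 0.0744), without replicate 2 at 6 h (-0.69, adjusted p = 0.0645) or without either tbGFP-positive library at 24 h (adjusted p = 0.141 and 0.218). In tbGFP-negative cells no member passed between 6 and 24 h, where 7.91% of all tested genes did (3.62% higher, 4.3% lower).

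**Figure D2:**
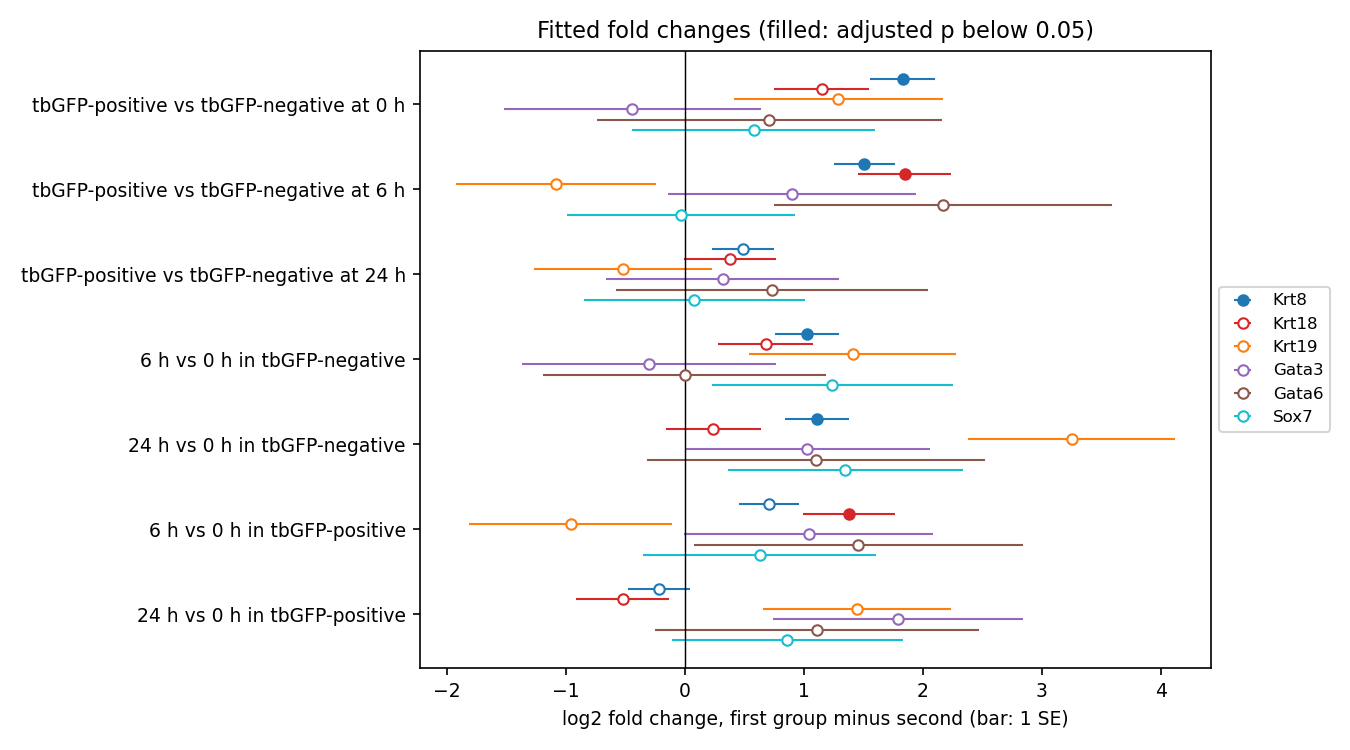
Fitted log2 fold changes (horizontal axis, first group minus second, bars 1 SE) of 6 tested members in the 7 planned comparisons; Cdx2 is left out because its groups include some with 0 counts. Filled points have an edgeR adjusted p under 0.05. The filled points are Krt8 between fractions at 0 and 6 h and over time in tbGFP-negative cells, and Krt18 between fractions at 6 h and over time in tbGFP-positive cells.

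Whether the gap between fractions differed over time was tested as an interaction. For Krt8 the gap at 24 h minus that at 0 h was -1.33 ± 0.37 on the log2 scale, with an edgeR p of 0.00264 before and 0.184 after adjustment. It passed with DESeq2 (adjusted p = 0.034) and without replicate 1 (adjusted p = 0.0424) or replicate 2 (adjusted p = 0.0478) of tbGFP-positive cells at 6 h. Among all tested genes 0.17% passed at 6 h against 0 h (0% with a positive and 0.17% with a negative value). At 24 h against 0 h 0.97% passed (0.0206% positive and 0.949% negative). A negative value is a fall in the tbGFP-positive minus tbGFP-negative difference. It can be a wider gap for genes that were lower in tbGFP-positive cells. No member passed either interaction. The Krt8 gap at 24 h is therefore not shown to differ from that at 0 h. For Krt18 the same interaction was -0.76 ± 0.55 (adjusted p = 1). Whether the gaps at 6 and 24 h differed was not tested.

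Krt19 (ENSMUSG00000020911.14, chromosome 11, 100140810 to 100148665, minus strand), the other type I partner of keratin 8, was low at 0 and 6 h in each fraction. In tbGFP-negative cells its counts were 3 and 8 without sorbitol, 24 and 6 after 6 h, and 78 and 88 after 24 h. In CPM these were 1.12 and 0.909, then 4.03 and 1.25, then 8.07 and 11.2. The tbGFP-positive cells had 1.72 and 3.21 CPM, then 1.21 and 1.28, then 7.99 and 5.45 CPM, so that all 4 libraries at 24 h lay above the other 8. In tbGFP-negative cells the ratio of 24 h to 0 h was 9.52, and its log2 value of 3.25 ± 0.87 was just over the threshold (edgeR adjusted p = 0.0506). It passed in 7 of 21 alternatives, among them DESeq2 (adjusted p = 0.00388) and the fits without replicate 1 (adjusted p = 0.004) or replicate 2 (adjusted p = 0.0042) of tbGFP-positive cells at 6 h, and its log2 value over all alternatives was 2.89 to 3.48. In tbGFP-positive cells the log2 difference was 1.45 ± 0.79 (adjusted p = 0.62). Against 6 h it was 2.41 ± 0.84 (adjusted p = 0.0857), and passed with DESeq2 (adjusted p = 0.036) and without replicate 1 at 6 h (adjusted p = 0.0472).

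Krt8 and Krt18 can be set side by side per length, since each is annotated as 1 transcript and all or nearly all of its bases belong to no other. The ratio of Krt8 to Krt18 counts per kilobase was 0.822 and 0.644 in tbGFP-negative cells before sorbitol, 0.941 and 0.895 after 6 h and 1.1 and 1.59 after 24 h. In tbGFP-positive cells it was 0.89 and 2.03 before, 0.607 and 0.846 after 6 h and 1.51 and 1.32 after 24 h. Krt18 exceeded Krt8 in all 4 libraries at 6 h and Krt8 exceeded Krt18 in all 4 at 24 h. Both genes have near copies whose reads could be misplaced. Krt8-ps on chromosome 7, 98.6% identical over 941 bases, had 45 counts in all libraries against 3599 for Krt8, and Gm5200 on chromosome 13, 90.4% identical to Krt18 over 1267 bases, had 142 against 2834.

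Over the 12 libraries, which share fractions and times, Krt8 and Krt18 correlated at r = 0.83 on log2(CPM + 1), while Krt8 and Krt19 were at 0.05 and Krt18 and Krt19 at -0.38. These values are descriptions without a test. The tested genes with the most similar profiles, among those with a mean of at least 5 CPM, were Thbs1 (r = 0.962), Lepr (0.955) and Slc25a31 (0.952) for Krt8, Pcdh17 (0.947), Cypt2 (0.943) and Gm8121 (0.928) for Krt18, and Tmem181c-ps (0.945), Gm49448 (0.936) and Nhej1 (0.92) for Krt19. No gene was among the top 3 of more than 1 keratin. For the other tested members they were Gm28502 (0.91), Fzd7 (0.883) and Gm12138 (0.875) for Cdx2, Ldoc1 (0.93), Rnf166 (0.915) and BC022960 (0.911) for Gata3, Tarsl2 (0.918), Esyt3 (0.917) and Rdh14 (0.883) for Gata6, and Wnk3 (0.859), Cnpy4 (0.839) and Acad11 (0.836) for Sox7.

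Levels in tbGFP-negative cells were also set against those in tbGFP-positive cells for the 2-cell genes, which the sort selects. The summed level of 11 listed 2-cell genes in tbGFP-negative cells was 0.0484% of that in tbGFP-positive cells at 0 h, 0.161% at 6 h and 2.38% at 24 h. Krt8 in tbGFP-negative cells was at 28.5%, 35.1% and 71.1% of its tbGFP-positive level at the same times. Krt18 was at 45.2%, 27.7% and 76.5%, and Krt19 at 41.1%, 212% and 143%. In bulk RNA, fewer cells with a transcript and less of it per cell cannot be told apart.

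Neither transcription factor gene of the trophectoderm passed in any comparison. Cdx2 (ENSMUSG00000029646.3, chromosome 5, 147300805 to 147307270, minus strand), the homeobox gene that specifies the lineage, had 0 and 2 counts in tbGFP-negative cells without sorbitol, 0 and 4 after 6 h and 11 and 7 after 24 h. In tbGFP-positive cells it had no counts in any of the 4 libraries of 0 and 6 h, and 16 and 22 after 24 h. The groups at 24 h held 18 and 38 of its 62 counts, and neither fraction at 24 h overlapped its 0 h group. In tbGFP-positive cells Cdx2 was at least 9.45-fold higher at 24 h than at 0 h, counting the empty group as 3 counts, and did not pass (edgeR adjusted p = 0.323). In tbGFP-negative cells the ratio was 5.89 with a 95% counting interval of 1.41 to 52.3 (adjusted p = 0.645). Cdx2 met the count filter for testing only through libraries at 24 h. It was thus selected in part for being high at that time, and the bound and interval alone do not show that it rose. At 24 h its level was 3.04 ± 0.282 CPM in the tbGFP-positive fraction and 1.01 ± 0.176 CPM in the other, and this difference did not pass either (adjusted p = 0.929).

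Gata3 (ENSMUSG00000015619.10, chromosome 2, 9857078 to 9890034, minus strand), a GATA factor gene of the trophectoderm, had 6 and 13 counts in tbGFP-negative cells before sorbitol, 10 and 6 after 6 h and 39 and 27 after 24 h. In tbGFP-positive cells it had 11 and 2, 2 and 33, and 25 and 33. At 24 h both fractions lay above their own 0 h libraries, with log2 fold changes of 1.03 ± 1.03 and 1.79 ± 1.05 that did not pass (edgeR adjusted p = 0.795 and 0.659). How many of all tested genes lay without overlap was not counted, here or for Krt19, Cdx2, Gata6 and Sox7. Of 19384 tested genes, 11743 had a fitted value above 0 from 0 to 24 h in tbGFP-negative cells and 10667 in tbGFP-positive cells. The 33 counts in replicate 2 at 6 h had no match in replicate 1, and 17 of them were in the short transcript Gata3-205. Its mean levels were 1.3 to 2.64 CPM at 0 and 6 h and 3.73 ± 0.43 and 4.65 ± 0.298 CPM in the 2 fractions at 24 h.

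**Figure D3:**
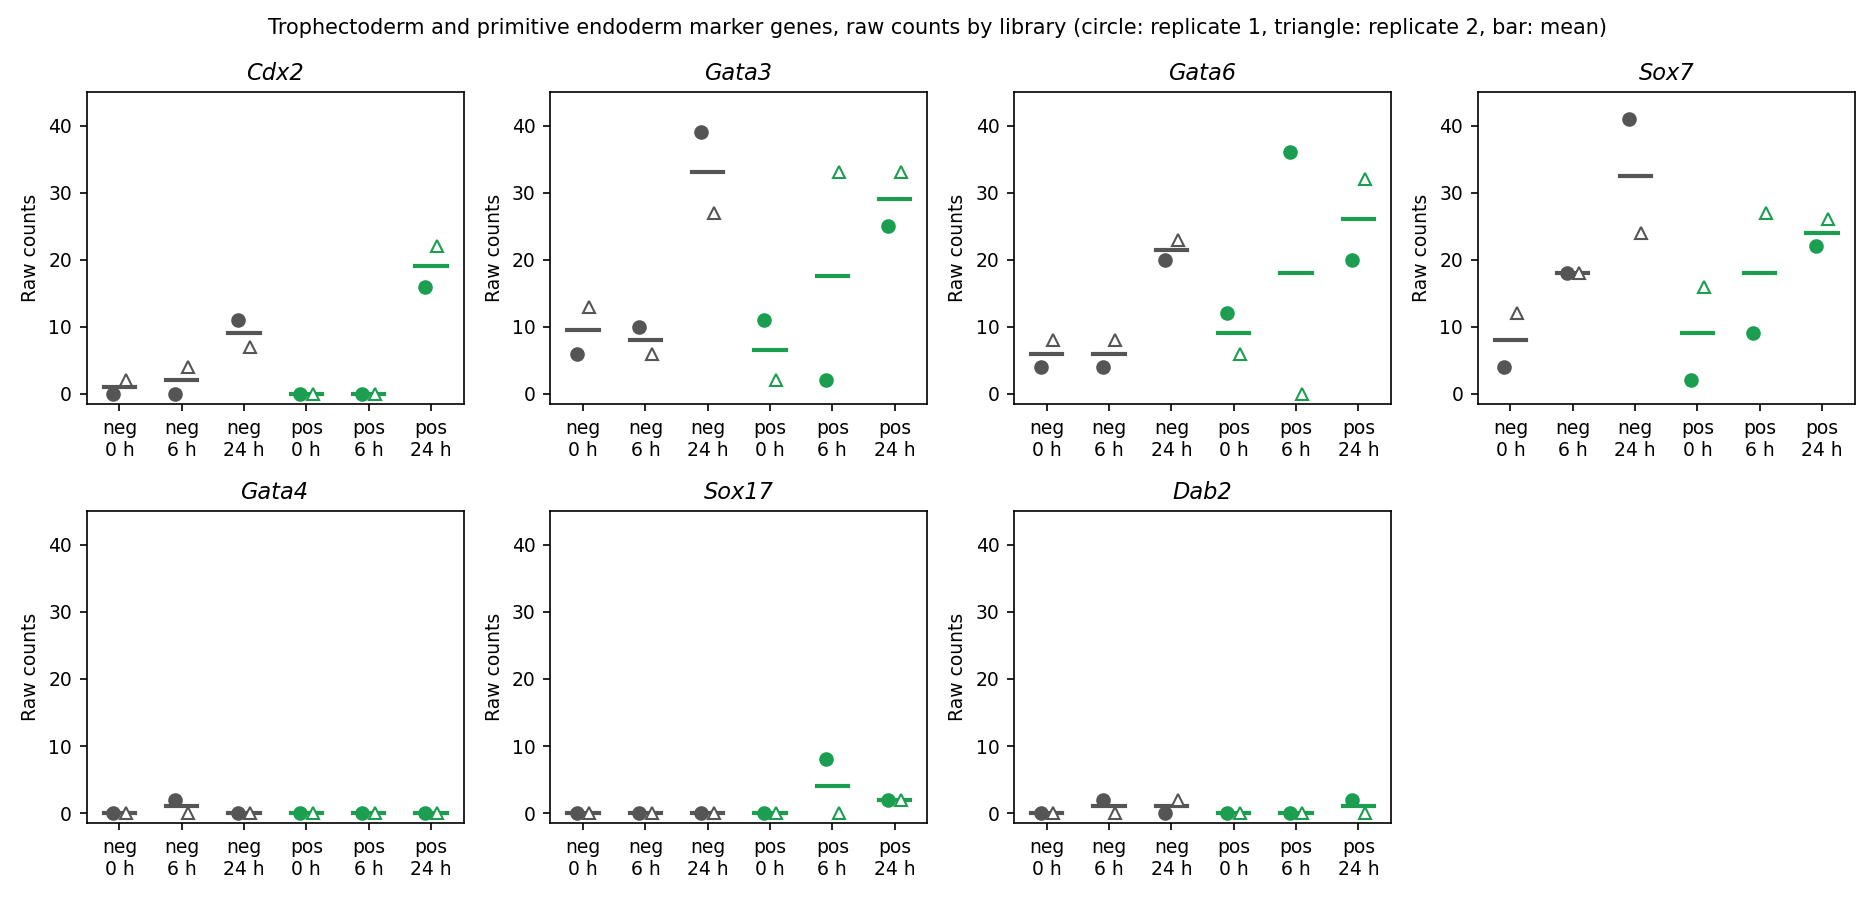
Raw counts (vertical axis) of the 7 trophectoderm and primitive endoderm marker genes in each library, in tbGFP-negative (neg, grey) and tbGFP-positive (pos, green) cells at 0, 6 and 24 h; circles are replicate 1, triangles replicate 2 and bars the mean. Library totals differ, so heights compare only roughly between libraries. Cdx2 has 7 to 22 counts at 24 h and at most 4 in any earlier library, and Gata4, Sox17 and Dab2 are at or near 0 throughout.

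Of the primitive endoderm factors, Gata6 and Sox7 had counts in most libraries. Gata6 (ENSMUSG00000005836.10, chromosome 18, 11052064 to 11085635, plus strand), the earliest factor of the lineage, had 4 and 8 counts in tbGFP-negative cells before sorbitol, 4 and 8 after 6 h and 20 and 23 after 24 h. In tbGFP-positive cells it had 12 and 6 before, 36 and 0 after 6 h, and 20 and 32 after 24 h. The libraries at 6 h disagreed completely, at 5.43 ± 7.68 CPM, and the log2 difference from tbGFP-negative cells was 2.17 ± 1.42 (edgeR adjusted p = 0.341). It passed without replicate 2, both against tbGFP-negative cells (3.20, adjusted p = 0.00799) and against 0 h (2.41, adjusted p = 0.0454). Without replicate 1 the group had 0 counts and the sign of both turned, so no direction is given for Gata6 at 6 h in tbGFP-positive cells. At 24 h against 0 h, where both fractions lay above their 0 h libraries, Gata6 differed by 1.10 ± 1.42 and 1.11 ± 1.36 and did not pass (adjusted p = 0.873 and 0.898).

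Sox7 (ENSMUSG00000063060.6, chromosome 14, 63943673 to 63950732, plus strand), a SOX factor gene of the endoderm, is annotated as 1 transcript that shares no base with another. Its counts in tbGFP-negative cells were 4 and 12 before sorbitol, 18 and 18 after 6 h and 41 and 24 after 24 h. The libraries at 6 and 24 h lay above those at 0 h in CPM, and the log2 fold changes of 1.24 ± 1.01 and 1.35 ± 0.99 did not pass (edgeR adjusted p = 0.603 and 0.664). The tbGFP-positive cells had 2 and 16, 9 and 27, and 22 and 26 counts, and their 0 h libraries spanned the level of the later ones. Between fractions Sox7 differed by -0.03 ± 0.96 at 6 h and 0.08 ± 0.93 at 24 h. These intervals are wide, and the sign at 24 h turned under upper-quartile scaling (-0.11) and library totals (-0.34).

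Gata4, Sox17 and Dab2 cannot be read as silent from these counts. Reads that fell on several annotated transcripts appear to have gone uncounted: 36718 transcripts share every base with another, and they held 0.006% of all counts, while 64.358% of the 104818 transcripts with bases of their own had counts. Counting also seems not to have used strand, because 1696 transcripts whose own bases all lie opposite another transcript had 0 counts. Gata4 (ENSMUSG00000021944.15, chromosome 14, 63198922 to 63271692, minus strand), a GATA factor gene of the endoderm, has 6 transcripts with only 462 bases of their own, and had 2 counts in all, in replicate 1 of tbGFP-negative cells at 6 h. Sox17 (ENSMUSG00000025902.13, chromosome 1, 4490931 to 4497354, minus strand), which maintains the primitive endoderm, has 8 transcripts with 885 such bases. It had 8 counts in replicate 1 of tbGFP-positive cells at 6 h and 2 in each library of that fraction at 24 h, all in the retained-intron transcript Sox17-205. Dab2 (ENSMUSG00000022150.16, chromosome 15, 6299788 to 6440712, plus strand) has 14 transcripts with 2153 such bases and had 2 counts in each of 3 libraries, replicate 1 of tbGFP-negative cells at 6 h, their replicate 2 at 24 h and replicate 1 of tbGFP-positive cells at 24 h. By contrast, Krt8, Krt18, Cdx2 and Sox7 are single transcripts with 1857 of 1958, 1437 of 1437, 2261 of 2261 and 3299 of 3299 bases of their own. Krt19, Gata3 and Gata6 lay between, with 937, 2648 and 4792 such bases over 3, 6 and 6 transcripts.

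**Figure D4:**
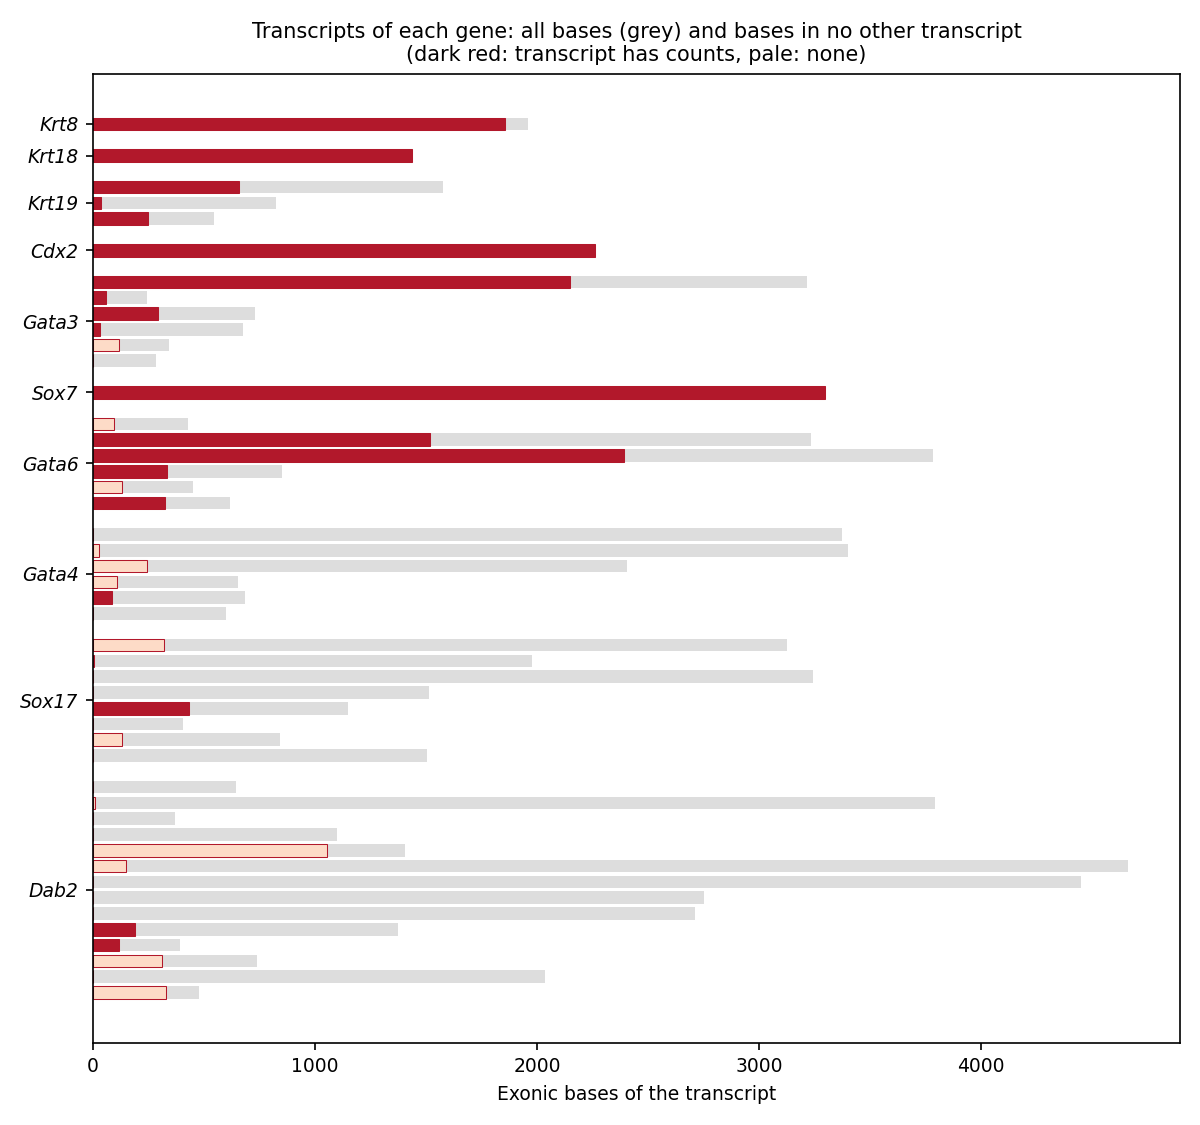
Each row is 1 annotated transcript of a member; the grey bar is its exonic length in bases and the red bar, drawn from 0, the number of its bases in no other transcript on either strand (dark where the transcript has counts, pale where it has none). Krt8, Krt18, Cdx2 and Sox7 are covered wholly or nearly so, while the longest transcripts of Gata4, Sox17 and Dab2 have few or no bases of their own.

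Other genes of the same lineages were taken from lists. Of 15 other trophectoderm genes, 6 were tested and Gcm1, a transcription factor gene of placental labyrinth cells, was the 1 that passed from 0 to 24 h in each fraction, as higher at 24 h. Among all tested genes 2.7% passed as higher in this comparison in tbGFP-negative and 0.304% in tbGFP-positive cells. Its level was 0.747 and 1.36 CPM before sorbitol, 3.86 and 4.57 CPM after 6 h and 25.8 and 26.9 CPM after 24 h in tbGFP-negative cells. In tbGFP-positive cells it was 1.15 and 2.97, then 0 and 1.42, then 21.7 and 22.4 CPM. All 4 libraries at 24 h lay above the other 8, as for Krt19. Eomes, a trophoblast stem cell factor gene of the same list named here after its values were seen, had the same order without passing, at 7.45 to 10.5 CPM in the libraries at 24 h and at most 3.69 CPM in the others. How many of all tested genes had this order was not counted. Ascl2 of this list did not have it, at 10.1 and 7.38 CPM at 0 h and 5.69 and 7.74 CPM at 24 h in tbGFP-negative cells. In tbGFP-positive cells Ascl2 was at 20.5 and 14.8, then 10.6 and 15.2 CPM. Elf5, Dppa1, Tpbpa and Plac1 were at 0 in both fractions at 24 h. Bases of their own were not tabulated for these genes, so 0 counts need not mean that they were silent. For Gcm1 the log2 fold change from 0 to 24 h was 4.50 ± 0.77 in tbGFP-negative cells (edgeR adjusted p = 0.00257). Without replicate 1 or replicate 2 of these cells at 0 h it was 4.25 and 4.97, and the call was lost. In tbGFP-positive cells it was 3.44 ± 0.72 (adjusted p = 0.0485), and leaving out any of 10 libraries, all but the tbGFP-positive ones at 6 h, ended that call (adjusted p 0.0958 to 0.472). The median log2 fold change of the 6 tested genes was 1.3 and 1.89 in these comparisons, where all genes had 0.23 and 0.09. Tead4, a factor gene upstream of Cdx2 in the trophectoderm, fell between 6 and 24 h in tbGFP-positive cells, from 30.6 ± 16.5 to 9.58 ± 1.24 CPM (-1.66 ± 0.43, adjusted p = 0.029), lost in 9 of 20 alternatives, among them without replicate 1 at 6 h (-0.92, adjusted p = 0.0859). Between fractions 0 of the 6 passed at any time, where 5.46% to 12.1% of all tested genes did.

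Of 22 other primitive endoderm genes 15 were tested. At 0 and 24 h 0 of the 15 passed between fractions, where 7.11% and 5.46% of all tested genes did. At 6 h 1 passed as higher and 2 as lower in tbGFP-positive cells, where 6.92% and 5.22% of all tested genes did. At 6 h Col4a2, a basement membrane collagen gene, was higher in tbGFP-positive cells, at 90.8 and 110 CPM against 32.9 and 43 CPM (1.41 ± 0.25, edgeR adjusted p = 0.00155). The call was lost without replicate 1 of tbGFP-negative cells at 6 h (1.16). Col4a1, another collagen gene of the list, was too low to be tested. At 6 h it had 0 and 0 counts in tbGFP-positive and 4 and 6 in tbGFP-negative cells. Whether uncounted shared reads lowered Col4a1 was not tested. The activin inhibitor gene Fst (1 count against 59, adjusted p = 0.0286) and the basement membrane gene Nid2 (5 against 73, adjusted p = 0.0461) passed as lower in tbGFP-positive cells. These calls were lost in 4 of 19 and 13 of 20 alternatives. From 0 to 6 h Plat, which encodes tissue plasminogen activator, a product of parietal endoderm, rose in both fractions. It went from 1.37 ± 0.173 to 18.3 ± 0.277 CPM in tbGFP-negative cells (3.75 ± 0.63, adjusted p = 0.00319; without replicate 2 at 0 h, adjusted p = 0.102) and from 3.87 ± 2.22 to 19.2 ± 0.116 CPM in tbGFP-positive cells (2.32 ± 0.57, adjusted p = 0.0291, lost in 9 of 20 alternatives). The endocytic receptor gene Cubn rose in tbGFP-negative cells, from 13.3 ± 2.92 to 57.7 ± 0.991 CPM (2.10 ± 0.52, adjusted p = 0.0313, lost in 9 of 21). The laminin gene Lamc1 fell there from 0 to 6 h (-0.60 ± 0.16, adjusted p = 0.0451, lost in 7 of 21). Among all tested genes 4.44% and 5.9% passed from 0 to 6 h in tbGFP-negative and tbGFP-positive cells. From 6 to 24 h these shares were 7.91% and 8.82%. Between 6 and 24 h Plat fell in tbGFP-negative (-3.01 ± 0.58, adjusted p = 0.00427, lost in 2 of 21) and tbGFP-positive cells (-2.10 ± 0.56, adjusted p = 0.0318, lost in 10 of 20), and Cubn in tbGFP-negative cells (-2.50 ± 0.52, adjusted p = 0.00716, lost in 2 of 21). Lamc1 also fell in tbGFP-negative cells from 1880 and 1910 CPM at 0 h to 883 and 924 CPM at 24 h (-1.07 ± 0.16, adjusted p = 0.000856), in all 21 alternatives. Lrp2, of the same list, fell there from 860 ± 73.5 CPM at 0 h to 526 ± 2.05 CPM at 24 h (-0.71 ± 0.19, adjusted p = 0.0432, lost in 6 of 21). Among all tested genes 1.29% passed as lower in this comparison. Lama1, another laminin gene, was at 197 and 194 CPM at 0 h, 141 and 159 CPM at 6 h and 300 and 289 CPM at 24 h there, and rose from 6 to 24 h (0.97 ± 0.17, adjusted p = 0.0021), in 20 of 21, the exception being the fit without replicate 1 of tbGFP-negative cells at 6 h (0.84, adjusted p = 0.0572). The median of the 15 genes from 0 to 6 h was 1.23 in tbGFP-negative and 0.28 in tbGFP-positive cells, where all genes had 0.05 and -0.05. Hnf4a, a nuclear receptor gene of visceral endoderm, and Pth1r, a hormone receptor gene of parietal endoderm, were at 0 in all groups. Bases of their own were not tabulated either, so this does not show that they were silent.

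**Figure D5:**
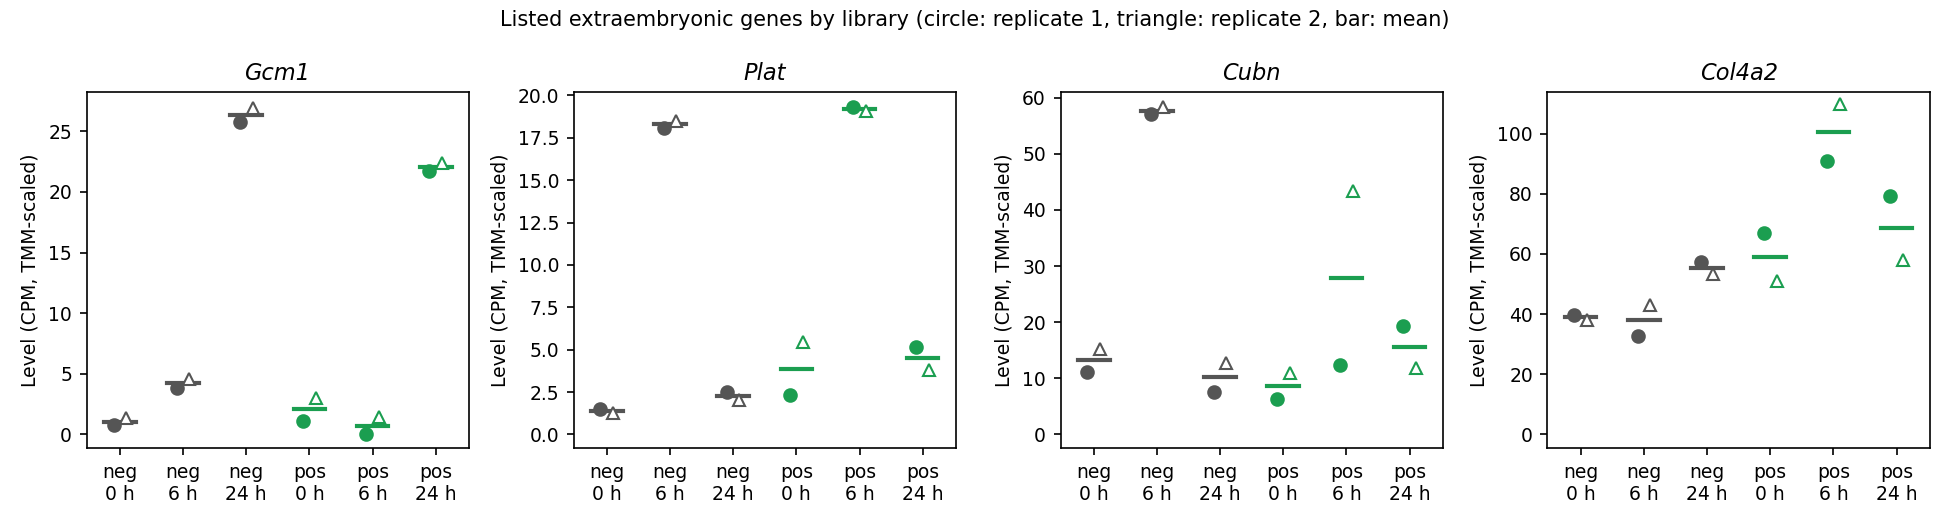
Levels (vertical axis, CPM scaled with TMM factors, a separate scale for each gene) of the listed trophectoderm gene Gcm1 and the listed primitive endoderm genes Plat, Cubn and Col4a2 in each library, in tbGFP-negative (neg, grey) and tbGFP-positive (pos, green) cells at 0, 6 and 24 h; circles are replicate 1, triangles replicate 2 and bars the mean. Gcm1 is high in all 4 libraries at 24 h and Plat in all 4 at 6 h.

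Of 9 other keratin genes listed, 6 were tested, and 0 passed as higher in tbGFP-positive cells at any time, where 6.66%, 6.92% and 5.35% of all tested genes did. Their median log2 fold change between fractions was 1.05 at 0 h, -0.51 at 6 h and 1.16 at 24 h, where all genes had 0, -0.07 and -0.05. Krt5, the type II keratin of basal epithelia, had 21 and 19 counts in tbGFP-negative cells at 6 h and 0 in both tbGFP-positive libraries, and was lower in the latter (edgeR adjusted p = 0.0228). In tbGFP-positive cells at 24 h it had 90 and 70 counts, and Krt23 had 40 and 47 where the 6 h libraries had 0, and both were higher at 24 h (adjusted p = 0.0107 and 0.0326). The Krt5 calls were lost in 4 of 20 and 2 of 20 alternatives and the Krt23 call in 7 of 20. These comparisons use the libraries at 6 h with the fewest genes detected. Krt23 also met the count filter for testing only through libraries at 24 h. It was thus selected in part for being high at that time, and its call alone does not show a rise. Of 14 listed genes of epithelial junctions and keratin linkers, 12 were tested, and 0 passed as higher in tbGFP-positive cells at any time, against the same shares of all genes. At 6 h 3 were lower there, where 5.22% of all tested genes were, among them Jup, which encodes plakoglobin (2.45 ± 1.75 against 11.8 ± 2.97 CPM, -2.19 ± 0.64, adjusted p = 0.0391), and Ezr, the ezrin gene (632 ± 42.9 against 866 ± 82.7 CPM, -0.46 ± 0.14, adjusted p = 0.0459), both lost in 11 of 20 alternatives; the other was Plec, a linker of keratin filaments, with 0 counts against 19 (adjusted p = 0.0442, lost in 12 of 18). The median of the 12 was -0.13 at 0 h, -0.40 at 6 h and -0.10 at 24 h.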

How the data were processed

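RNA from 12 libraries was read as the deposited raw counts, 1 per Ensembl transcript, per the file headers. Per the labels' protocols, total RNA of sorted cells went into a stranded library kit. FastQC, HISAT2, featureCounts, DESeq2 and the mm10 build are named without versions in the submitters' processing notes; counting options are not given in the sources used here. The design assumed gene counts, so transcript counts were summed per gene with GENCODE M21 (GRCm38): 141536 of 142446 transcripts matched, and the 910 others held 0.0606% to 0.0903% of each library's counts. Shared bases were computed from the same annotation.

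Of 55266 genes, 19384 that reached 10 counts in 2 or more libraries entered the test with edgeR 4.0.16 in R 4.3.3 (TMM factors, quasi-likelihood F test, a mean for each of 6 groups, all 12 libraries in 1 fit with 6 residual degrees of freedom). P-values were adjusted by Benjamini-Hochberg over all tested genes within each of 9 comparisons and 2 interactions, at a threshold of 0.05. The SE given with a log2 fold change was not an edgeR output. It was computed as the absolute log2 fold change over the square root of the F statistic, and is unstable for values near 0. The common dispersion of 0.208, a coefficient of variation of 45.6%, limits precision. Bounds use 3 counts over a group, and intervals and bounds cover counting error only, without molecular identifiers. Among genes with 1 to 10 counts, 65.9% to 73% of counts were even in 11 libraries and 56.9% in replicate 2 of tbGFP-positive cells at 6 h, so intervals may be too narrow.

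The members, lists, comparisons and alternatives were chosen with earlier results of these data known. Members are named in every comparison; from other lists, at most 4 genes per comparison past the threshold with the largest fold change, and similar genes by Pearson r. Alternatives were other scalings, DESeq2 1.42.0, other filters, fewer libraries, the most-counted transcript and a replicate block. Sequences are from RefSeq tables (GRCm38.p6).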

Additional observations from a re-analysis of the deposited data

How the results depend on the processing

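Of 1532 alternative values for the 7 tested members, 1423 kept direction and side of the threshold, 47 lost a call, 22 gained one and 40 changed sign; the causes were not tested. The calls of Krt8 between fractions at 0 and 6 h held under every alternative run. The number of members called was 1, 2 and 0 between fractions at 0, 6 and 24 h, 1 and 1 at 6 and 24 h against 0 h in tbGFP-negative cells, 1 and 0 in tbGFP-positive cells, 0 and 2 at 24 h against 6 h in tbGFP-negative and tbGFP-positive cells, and 0 in each interaction. Upper-quartile factors gave 0 in both 0 h comparisons of tbGFP-negative cells. Library totals gave 0 (6 h) and 2 (24 h) there. DESeq2 gave 2 at 24 h there, 3 at 24 h against 6 h in tbGFP-positive cells and 1 in the 24 h interaction, and a filter of at least 30 counts gave 2 at 24 h there. Without a filter there were 2 between fractions at 0 h, 0 and 0 over time in tbGFP-negative cells and 1 at 24 h against 6 h in tbGFP-positive cells. With only the libraries compared there were 2 at 24 h against 0 h and 1 at 24 h against 6 h in tbGFP-negative cells, and 0 and 0 at 6 h against 0 h and 24 h against 6 h in tbGFP-positive cells. Without both tbGFP-positive libraries at 6 h there were 2 between fractions at 0 h, and 2 and 1 at 24 h against 0 h and 6 h in tbGFP-negative cells. Leaving out 1 library gave 1 to 2, 1 to 3 and 0 between fractions at 0, 6 and 24 h, 0 to 1 and 0 to 2 at 6 and 24 h against 0 h in tbGFP-negative cells, 0 to 3 and 0 in tbGFP-positive cells, 0 to 1 and 0 to 4 at 24 h against 6 h, and 0 and 0 to 1 in the interactions.

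Deviations of same-numbered libraries correlated at -0.11 to 0.2 over 15 pairs of groups, 1 above 0.1. Weak correlations cannot show that these libraries were unpaired, and the labels do not say whether same-numbered libraries shared a culture. With the replicate block 0 members passed at 6 h against 0 h in tbGFP-negative cells (Krt8, adjusted p = 0.0584), and no other member's call changed.

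Genes called over all tested ranged widely over the alternatives: 809 to 2489 (1378 as reported), 609 to 5350 (2354) and 719 to 2257 (1059) between fractions at 0, 6 and 24 h, 152 to 3944 (860) and 270 to 3247 (773) at 6 and 24 h against 0 h in tbGFP-negative cells, 4 to 4008 (1143) and 9 to 928 (107) in tbGFP-positive cells, 557 to 6327 (1534) and 0 to 4719 (1709) at 24 h against 6 h, and 9 to 2167 (33) and 75 to 326 (188) in the interactions. Upper-quartile factors and library totals moved the median log2 fold change of all genes between fractions from 0 to -0.35 and -0.41 at 0 h, from -0.07 to -0.40 and -0.09 at 6 h and from -0.05 to -0.25 and -0.48 at 24 h.

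Signs turned in values that had not passed. Between fractions at 24 h, Sox7 was -0.11 with upper-quartile factors, and Krt18, Gata3 and Sox7 were -0.04, -0.11 and -0.34 with library totals. At 24 h against 6 h in tbGFP-negative cells, Krt8 and Sox7 were -0.05 and -0.02 with upper-quartile factors. The Krt8 interaction at 6 h was 0.1 with library totals, Sox7 between fractions at 6 h was 0.04 with DESeq2 and 0.01 with only the libraries compared, and the Gata6 interaction at 24 h was -0.01 with the most-counted transcript.

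Leaving out 1 library gave these ranges of log2 values where a sign turned. Between fractions, Gata3 and Sox7 were -1.82 to 0.23 and -1.82 to 1.48 at 0 h, Gata3, Gata6 and Sox7 were -1.28 to 1.62, -5.87 to 3.2 and -0.34 to 0.14 at 6 h, and Sox7 was -0.06 to 0.42 at 24 h. In tbGFP-negative cells, Cdx2 was -3.13 to 4.29 at 6 h and Krt18 -0.05 to 0.29 at 24 h against 0 h, and Krt8 and Sox7 were -0.08 to 0.11 and -0.21 to 0.26 at 24 h against 6 h. In tbGFP-positive cells against 0 h, Gata3, Gata6 and Sox7 were -1.21 to 2.34, -6.65 to 2.41 and -0.35 to 2.96 at 6 h, and Krt8, Krt18 and Sox7 were -0.5 to 0.02, -1.17 to 0.53 and -0.08 to 3.23 at 24 h; Gata6 was -1.35 to 7.71 at 24 h against 6 h. In the interactions, Cdx2, Gata3, Gata6 and Sox7 were -4.29 to 3.13, -0.9 to 2.68, -6.63 to 2.42 and -1.55 to 1.76 at 6 h, and Krt18, Gata6 and Sox7 were -1.3 to 0.4, -0.32 to 0.46 and -1.32 to 1.98 at 24 h. The Gata6 values without replicate 1 of tbGFP-positive cells at 6 h and the Cdx2 values set a fitted level against a group of 0 counts, so their sizes are not estimates or bounds. Where a group was left with 1 library, that library was assumed to vary like the other groups. With 0 to 41 counts per library, depth limits Cdx2, Gata3, Gata6 and Sox7.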

Other observations

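Tubb3, a neuronal tubulin gene of the ectoderm list, was higher in tbGFP-positive cells at 6 h (102 ± 26.7 against 53.2 ± 8.84 CPM, n = 2 libraries each, 0.95 ± 0.28, edgeR adjusted p = 0.0412, lost in 11 of 20 alternatives) and at 24 h (89.7 ± 8.51 against 40.5 ± 6.8 CPM, 1.15 ± 0.28, adjusted p = 0.0218, lost in 5 of 21). Sox1, a neural factor gene of that list, was lower in them at 6 h, with 2 counts against 47 (adjusted p = 0.0313, lost in 9 of 20). Kdr, the VEGF receptor gene of early mesoderm, was at 3.64 ± 2.25 CPM in tbGFP-negative cells at 0 h, 3.22 ± 0.432 CPM at 6 h and 17.2 ± 1.06 CPM at 24 h (n = 2 libraries each). It rose from 0 to 24 h by 2.35 ± 0.61 on the log2 scale (edgeR adjusted p = 0.0439) and from 6 to 24 h by 2.41 ± 0.60 (adjusted p = 0.0219), calls lost in 12 and 6 of 21 alternatives. In tbGFP-positive cells Kdr rose from 6.12 ± 4.39 to 27.3 ± 5.64 CPM between 6 and 24 h (2.10 ± 0.58, adjusted p = 0.0373, lost in 8 of 20). In each of these comparisons it was the 1 of 5 tested genes of its list that passed. Among all tested genes 2.7%, 3.62% and 5.91% passed as higher in them. The median of the 5 was 1.13, 0.53 and 0.44, where all genes had 0.23, 0.16 and 0.13. From 0 to 24 h in tbGFP-positive cells 0 of the 5 passed, with a median of -0.05. The desmosome gene Dsg2, which encodes a desmoglein, was at 58.6 and 65.9 CPM in tbGFP-negative and 46.7 and 62.3 CPM in tbGFP-positive cells at 0 h. It fell from 0 to 6 h in tbGFP-positive cells (-1.14 ± 0.28, adjusted p = 0.0312). Between 6 and 24 h it rose from 33.7 ± 5.24 to 75.3 ± 6.24 CPM in tbGFP-negative cells (1.16 ± 0.28, adjusted p = 0.0173) and from 25 ± 9.05 to 55.1 ± 0.427 CPM in tbGFP-positive cells (1.16 ± 0.28, adjusted p = 0.0229), lost in 4 of 21 and 3 of 20 alternatives. Ezr fell in tbGFP-negative cells from 866 ± 82.7 to 413 ± 1.72 CPM (-1.07 ± 0.14, adjusted p = 0.000256), in all 21 alternatives.

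Krt7, a simple keratin gene of the trophectoderm list that was too low to be tested, had 31 counts in replicate 2 of tbGFP-positive cells at 6 h, 2 in replicate 1 of that group and at most 6 in any other library. Elf5, a trophoblast stem cell factor gene, had 24 counts in the same replicate 2, 3 and 8 in tbGFP-negative cells at 0 h and 0 elsewhere.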
